A study of Homo sapiens with 6 samples.

Results

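CD99, STEAP1, STEAP2, IL1RAP, LINGO1, GPR64, PAPPA and LIPI encode proteins that are placed on the surface of Ewing sarcoma cells or released by them, and are used or studied as markers or targets of this tumor. These 8 genes were taken by symbol from the 26364 gene symbols of the expression table, and all 8 were found, 7 under the symbol given here and GPR64 under its current symbol ADGRG2. All 8 passed the filter on low values, a mean of at least 0.5 FPKM (read counts scaled by gene length and library depth) over the 6 libraries, which 15504 genes passed.

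Ewing sarcoma is driven by a fusion of EWSR1 with an ETS transcription factor gene, most often FLI1. The ETS domain of FLI1 reads the bases GGAA, and the fusion protein also binds runs of GGAA repeats, from which it can switch on genes that are silent in most tissues. CD99 is the surface glycoprotein stained in the diagnosis of Ewing sarcoma, the STEAP proteins are metalloreductases or relatives of them in the cell membrane, IL1RAP is the shared signalling subunit of the interleukin 1 receptor family, LINGO1 is a leucine-rich repeat protein of the Nogo receptor complex, GPR64 is an adhesion G protein-coupled receptor, PAPPA is a secreted metalloprotease that cleaves insulin-like growth factor binding proteins, and LIPI is a secreted phospholipase that makes lysophosphatidic acid.

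RNAseq was performed on A673/TR/shEF cells, a derivative of the Ewing sarcoma cell line A673 that carries a tetracycline repressor and a doxycycline-inducible shRNA against EWSR1::FLI1. All samples carried both constructs and were grown with blasticidin and zeocin. The 3 EWSR1::FLI1 high samples were left untreated, and the 3 EWSR1::FLI1 low samples received 1 µg/mL doxycycline for 72 h, so knockdown and doxycycline itself cannot be told apart. The study describes the samples of a condition as independent clones, while their titles number them as experiments 1 to 3, so that p-values measure only the spread between these samples, which may be technical. Where 3 values are given for a group they are those of replicates 1, 2 and 3, in that order. In bulk RNA, fewer cells that express a gene and less RNA per cell cannot be told apart.

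The libraries held from 6980361 to 16658933 reads on genes, and a marker gene had between 46 reads (LINGO1 in EWSR1::FLI1 low replicate 2) and 5670 reads (IL1RAP in EWSR1::FLI1 high replicate 1) in a library. FLI1, which gives the 3′ part of the targeted transcript, had 11.3, 12.7 and 14.2 FPKM in the EWSR1::FLI1 high libraries and 2.91, 4.29 and 3.68 FPKM in the EWSR1::FLI1 low libraries (log2 fold change -1.57, adjusted p = 0.000676). EWSR1 and NR0B1 were the other genes of the knockdown check. EWSR1 had a log2 fold change of -0.50 (adjusted p = 0.159) and NR0B1 of -2.56 (adjusted p = 0.00172). Without EWSR1::FLI1 high replicate 2 or 3 NR0B1 lost its call (adjusted p = 0.0133 and 0.0117). The 6 Ewing sarcoma markers used to check the cells (NKX2-2, NR0B1, PRKCB, BCL11B, PPP1R1A and CCND1) were all expressed, at a summed 531 to 585 FPKM in the EWSR1::FLI1 high libraries and 94.1 to 158 FPKM in EWSR1::FLI1 low libraries. CCND1 alone had 375 to 394 FPKM in the high libraries and 70.8 to 141 FPKM in the low libraries. All 6 were called lower (limma, adjusted p under 0.01), with a median log2 fold change of -2.35. Of the markers of other cell types, 4 of 5 haematopoietic genes, 2 of 4 endothelial genes, 3 of 4 epithelial genes and 1 of 5 fibroblast genes stayed under 1 FPKM in every library, PTPRC, CDH5 and EPCAM among them. CD68 was the haematopoietic gene and KRT18 the epithelial gene that reached 1 FPKM, as did PECAM1, KDR and the fibroblast genes other than LUM. The summed endothelial list was at 0.881 to 1.30 FPKM in the EWSR1::FLI1 high libraries and 7.36 to 9.49 FPKM in EWSR1::FLI1 low libraries, and the fibroblast list at 47.4 to 67.5 and 69.0 to 82.4 FPKM. The summed epithelial list ran from 49.2 to 77.5 and from 40.2 to 108 FPKM, and the haematopoietic list from 6.56 to 9.77 and from 6.66 to 20.2 FPKM. Of these lists of other cell types KDR, PDGFRA and COL1A1 were called higher and no gene lower. The part of these lists in the results below was not tested. EWSR1::FLI1 low replicate 1 stood apart from the other libraries of its group, with the lowest sample quality weight of the 6 (0.172) and the lowest median-ratio scaling factor (0.796). Low replicate 2 had the highest weight (2.79) and low replicate 3 had 0.463. In fits with these weights, replicate 2 therefore counted most within the EWSR1::FLI1 low group. Over all genes tested, 2257 were called lower and 2488 higher with these weights, against 522 and 700 without them. A pass under quality weights below is to be read beside these counts.

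Since the fusion protein binds GGAA repeats, the reference genome was searched for runs of at least 4 uninterrupted GGAA units on either strand, and the run nearest to the start site of each marker gene was taken. The search was added after the values were seen, and the number of units in the reference need not be that of A673 cells. The runs of the 3 genes that had one within 10 kb of their start, LIPI, STEAP2 and IL1RAP, are shown beside those of PAPPA and CD99, the 2 genes whose change did not pass the test. Each is printed 5′ to 3′ from GRCh37 on the strand that reads GGAA, with the repeated units in capitals and 20 bases on each side.
LIPI (chr21:15585593-15585676, minus strand): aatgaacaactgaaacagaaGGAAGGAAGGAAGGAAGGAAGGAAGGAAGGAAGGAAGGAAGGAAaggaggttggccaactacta
STEAP2 (chr7:89837708-89837815, plus strand): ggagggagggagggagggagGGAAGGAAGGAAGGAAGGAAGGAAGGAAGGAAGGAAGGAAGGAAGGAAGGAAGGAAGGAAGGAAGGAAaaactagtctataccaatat
IL1RAP (chr3:190240060-190240151, minus strand): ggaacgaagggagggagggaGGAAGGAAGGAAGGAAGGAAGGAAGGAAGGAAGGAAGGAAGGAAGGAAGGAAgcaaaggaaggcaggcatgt
PAPPA (chr9:118904131-118904214, plus strand): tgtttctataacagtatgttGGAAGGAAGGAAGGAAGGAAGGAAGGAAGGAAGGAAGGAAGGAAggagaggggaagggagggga
CD99 (chrX:2583184-2583275, minus strand): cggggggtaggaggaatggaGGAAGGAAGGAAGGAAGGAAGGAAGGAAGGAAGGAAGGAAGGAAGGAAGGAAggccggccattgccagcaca

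The LIPI run had 11 units and lay 2.34 kb upstream of the start of LIPI, between genes. The STEAP2 run had 17 units, the most of any of the 8 nearest runs, and lay 3.26 kb upstream of the start of the canonical STEAP2 transcript, in sequence that longer annotated STEAP2 transcripts and the antisense gene STEAP2-AS1 span as intron. The IL1RAP run had 13 units and lay 8.21 kb downstream of the start, in an intron of IL1RAP. PAPPA and CD99 had runs of 11 and 13 units, 11.9 kb and 26.1 kb upstream of their starts. The nearest runs of STEAP1 (6 units, 53.9 kb), GPR64 (16 units, 54.8 kb) and LINGO1 (9 units, 97.3 kb) were farther away. The STEAP1 run ends at base 89837690 of chromosome 7 and the STEAP2 run starts at base 89837728, so the 2 runs lie side by side. None of the 8 runs overlapped an annotated exon. Within 100 kb of the start CD99 had 6 runs and PAPPA 4, STEAP1 and IL1RAP 3 each, STEAP2 2, and LIPI, GPR64 and LINGO1 1 each. A run lay within 10 kb of the start of 3 of the 8 genes and of 6.45% of the 12372 protein-coding genes tested, and within 25 kb of 4 of the 8 genes and of 17.4% of those genes. The median distance was 19.0 kb for the 8 genes and 88.6 kb for the protein-coding genes tested. These shares are descriptions of the reference sequence without a test, and they depend on the start taken. The canonical starts of STEAP2 (89841054) and LINGO1 (77925254) lie inside the annotated genes, whose outermost starts are at 89796904 and 78113242. From its outermost start STEAP2 would have no run within 10 kb.

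**Figure D1:**
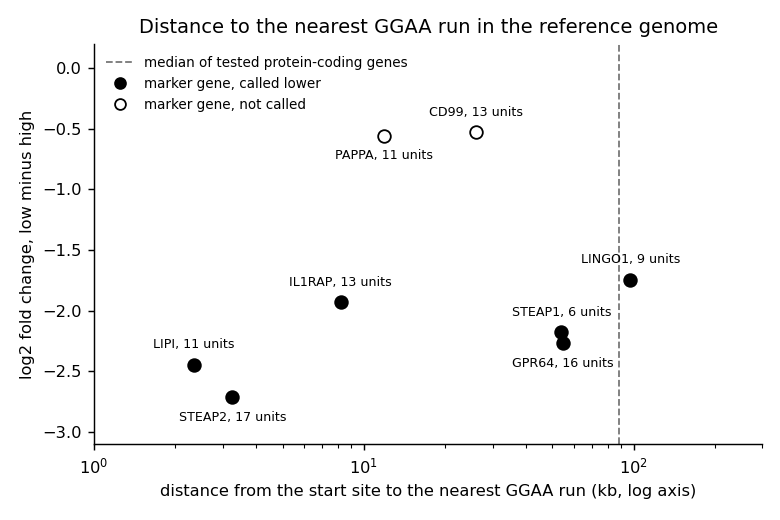
Distance from the start site of each marker gene to the nearest run of at least 4 GGAA units in GRCh37 (kb, log axis) against its log2 fold change on log2(FPKM + 1), with the number of units beside each name. Filled points were called lower and open points were not, and LIPI, STEAP2 and IL1RAP lie within 10 kb of a run, left of the dashed line at the median of 88.6 kb. The runs of STEAP1 and STEAP2 lie side by side.

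Upon EWSR1::FLI1 knockdown, 6 of the 8 marker genes fell, STEAP2, LIPI, GPR64, STEAP1, IL1RAP and LINGO1, and none rose. Their log2 fold changes lay between -2.71 and -1.74 on log2(FPKM + 1), a scale that shrinks changes of weakly expressed genes. CD99 and PAPPA had log2 fold changes of -0.53 and -0.56 and did not pass the test. A gene was called at an adjusted p under 0.01 (limma, Benjamini-Hochberg over 15504 genes), a threshold that 3.37% of all genes tested passed as lower and 4.51% as higher. In the FPKM as deposited, all 3 EWSR1::FLI1 low libraries were below all 3 EWSR1::FLI1 high libraries for each of the 8 genes. The same held for 23.6% of all genes tested, and the low libraries were all above for 17.5%. The median log2 fold change was -2.05 over the 8 genes and -0.05 over all genes tested. With median-ratio scaling the median of all genes was 0.06, and the 8 log2 fold changes kept their sign. The groups of CD99 and PAPPA overlapped once FPKM were divided by these scaling factors (0.796 for low replicate 1, 1.13 for high replicate 3).

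**Figure D2:**
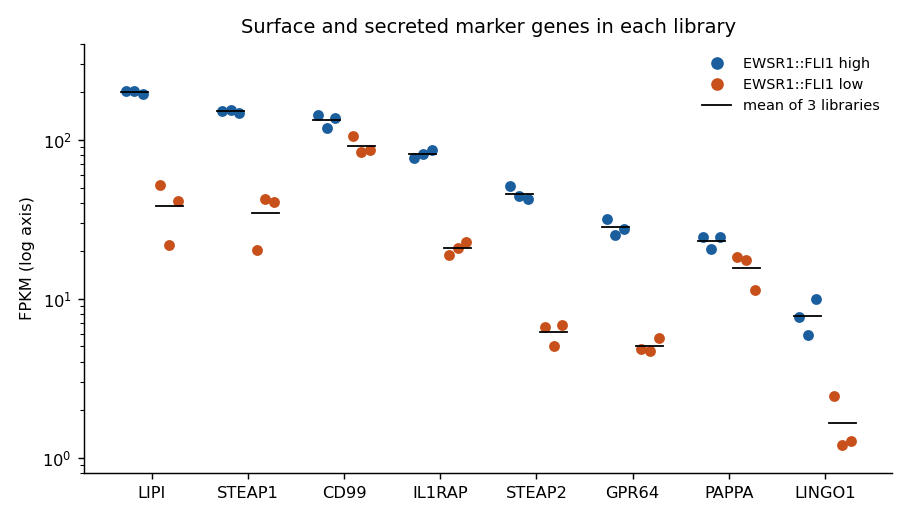
FPKM of the 8 marker genes in each library (log axis), ordered by their mean in EWSR1::FLI1 high cells, with a line at the mean of 3 libraries. The points of the 2 groups are separate for every gene, and the gap is narrow for CD99 and PAPPA.

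In EWSR1::FLI1 high cells LIPI had the highest level of the 8 genes, 194 to 204 FPKM, followed by STEAP1 (mean 152 FPKM), CD99 (133 FPKM), IL1RAP (81.6 FPKM), STEAP2 (45.8 FPKM), GPR64 (28.2 FPKM), PAPPA (23.1 FPKM) and LINGO1 (7.80 FPKM). The ranges of neighbours in this order did not overlap. LIPI was above 98.5% of all genes tested, and LINGO1 was above 54.2% of them. In EWSR1::FLI1 low cells CD99 came first with a mean of 91.8 FPKM, followed by LIPI (38.2 FPKM), STEAP1 (34.5 FPKM), IL1RAP (20.7 FPKM), PAPPA (15.7 FPKM), STEAP2 (6.15 FPKM), GPR64 (5.05 FPKM) and LINGO1 (1.64 FPKM). There the ranges of LIPI and STEAP1, of STEAP1 and IL1RAP, and of STEAP2 and GPR64 overlapped. CD99 moved from the third place to the first and PAPPA from the seventh to the fifth, and the other six genes kept their order among themselves.

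CD99 (ENSG00000002586, chromosome X, 2609228 to 2659350, plus strand, GRCh37), the diagnostic surface glycoprotein, had 144, 118 and 137 FPKM in the EWSR1::FLI1 high libraries. In the EWSR1::FLI1 low libraries it had 105, 84.2 and 86.0 FPKM. The groups did not overlap, but the nearest libraries of the 2 groups, at 118 and 105 FPKM, were close. The EWSR1::FLI1 low mean was 69.1% of the EWSR1::FLI1 high mean (log2 fold change -0.53, 95% interval -0.93 to -0.13, adjusted p = 0.067). Leaving out EWSR1::FLI1 low replicate 1 brought CD99 past the threshold, at a log2 fold change of -0.63 (adjusted p = 0.00951), and so did sample quality weights, at -0.62 (adjusted p = 0.00245). The 2 passes are not independent, since the weights were lowest for that same library (0.172). CD99 moved away from the threshold with quantile normalization (-0.34, adjusted p = 0.316), with median-ratio scaling (-0.37, adjusted p = 0.202) and without EWSR1::FLI1 high replicate 1 (-0.47, adjusted p = 0.254). CD99 lies in the pseudoautosomal region that chromosomes X and Y share, and how reads that match both copies were counted is not given in the sources used here.

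The relatives of CD99 did not move as one. XG, the blood group gene next to CD99 and its closest listed relative, fell. Its level was 7.01, 6.24 and 6.42 FPKM in the EWSR1::FLI1 high libraries and 0.805, 0.374 and 1.38 FPKM in the EWSR1::FLI1 low libraries. Every EWSR1::FLI1 low library was far below the lowest EWSR1::FLI1 high library (log2 fold change -2.06, standard error 0.21, adjusted p = 0.000388). CD99P1, a pseudogene that resembles CD99, had a log2 fold change of -0.69 (adjusted p = 0.0198), and reads could be split between it and CD99. It passed the test with quantile normalization (adjusted p = 0.00558), sample quality weights (0.0011) and limma-voom (0.00437). CD99L2, another relative, had a log2 fold change of 0.44 (adjusted p = 0.166), or 0.58 with median-ratio scaling (adjusted p = 0.00796), and PILRA and PILRB, paired receptors that can bind CD99, were too low to be tested. Of the 5 genes of this list 3 were tested, 1 was called lower and none higher, with a median log2 fold change of -0.69. Of the 14 other genes listed for the same pseudoautosomal region 9 were tested, 1 was called lower (PLCXD1, named after its values were seen) and none higher, with a median of -0.14.

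STEAP1 (ENSG00000164647, chromosome 7, 89783770 to 89794143, plus strand) and STEAP2 (ENSG00000157214, chromosome 7, 89796904 to 89867451, plus strand) are neighbours, with 2.76 kb between them, and both fell. STEAP1 had 152, 155 and 148 FPKM in the EWSR1::FLI1 high libraries and 20.1, 42.6 and 40.8 FPKM in the EWSR1::FLI1 low libraries. EWSR1::FLI1 low replicate 1 was the lowest library, and the groups were far apart. The mean fell to 22.8% (log2 fold change -2.18, standard error 0.28, adjusted p = 0.00108), and without EWSR1::FLI1 high replicate 2 the call was lost by a small margin (log2 fold change -2.16, adjusted p = 0.0103). STEAP2, a metalloreductase, had 51.1, 44.1 and 42.0 FPKM in the EWSR1::FLI1 high libraries and 6.60, 5.04 and 6.82 FPKM in the EWSR1::FLI1 low libraries. This was the largest fall of the 8 genes, with 13.4% of the mean left (log2 fold change -2.71, standard error 0.19, adjusted p = 6.87e-05), and 19 of all genes tested had a lower log2 fold change. With sample quality weights LIPI was lower than STEAP2 (-2.98 against -2.91). Whether strand was used in counting is not given in the sources used here, so that reads of STEAP2 and of STEAP2-AS1 on the opposite strand may not have been told apart.

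The ratio of STEAP1 to STEAP2 was 2.97, 3.51 and 3.52 in the EWSR1::FLI1 high libraries and 3.05, 8.46 and 5.98 in the EWSR1::FLI1 low libraries. The groups overlapped, since EWSR1::FLI1 low replicate 1 lay within the EWSR1::FLI1 high range (difference of log2 ratios 0.69, two-sided exact permutation test, p = 0.3, where 0.1 is the smallest p that 3 against 3 samples allow). Without that library the difference was 1.10 (exact permutation p = 0.1). The other STEAP genes did not pass the test. STEAP1B, which resembles STEAP1 closely enough that reads could be split between them, had 24.7, 24.2 and 20.7 FPKM in the EWSR1::FLI1 high libraries and 20.3, 24.4 and 25.2 FPKM in the EWSR1::FLI1 low libraries. STEAP3 had a log2 fold change of 0.05 (adjusted p = 0.959), whose sign changed between alternatives, and STEAP4 was too low to be tested.

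The 250 bases before the most upstream RefSeq start of STEAP1 and STEAP2 are shown because the genes fell together and their promoters were those of the 8 that held CCGGAA, a longer sequence that ETS factors read. They are printed 5′ to 3′ from GRCh38.p14 on the plus strand, with GGAA and its reverse complement TTCC in capitals.
STEAP1 promoter (chr7:90154219-90154468): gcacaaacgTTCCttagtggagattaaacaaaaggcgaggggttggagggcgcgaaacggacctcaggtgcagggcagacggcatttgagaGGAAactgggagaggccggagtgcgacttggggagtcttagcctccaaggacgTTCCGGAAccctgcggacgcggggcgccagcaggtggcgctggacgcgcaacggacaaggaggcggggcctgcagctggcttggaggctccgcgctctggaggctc
STEAP2 promoter (chr7:90211490-90211739): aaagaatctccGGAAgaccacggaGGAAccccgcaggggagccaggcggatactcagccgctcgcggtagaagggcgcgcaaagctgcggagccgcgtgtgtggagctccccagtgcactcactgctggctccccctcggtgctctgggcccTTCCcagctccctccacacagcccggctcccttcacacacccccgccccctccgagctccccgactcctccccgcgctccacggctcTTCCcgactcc

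All 8 promoters held GGAA on at least one strand, as did 92.8% of the 27195 promoters of the same length. The tandem GGAAGGAA was in none of the 8 and in 2.99% of all promoters. CCGGAA, searched on both strands, was in 2 of the 8 and in 14.8% of all promoters, or 23.5% of those of genes tested. In STEAP1 its 2 matches overlap, 1 on each strand.

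IL1RAP (ENSG00000196083, chromosome 3, 190231840 to 190377539, plus strand), the co-receptor that interleukin 1, interleukin 33 and interleukin 36 receptors need to signal, had 76.7, 81.7 and 86.5 FPKM in the EWSR1::FLI1 high libraries. In the EWSR1::FLI1 low libraries it had 18.8, 20.8 and 22.5 FPKM. Both groups were tight and far apart, and the mean fell to 25.4% (log2 fold change -1.93, standard error 0.17, adjusted p = 0.000212). Its primary partner IL1R1, the receptor that binds interleukin 1 itself, rose from a low level. IL1R1 had 0.718, 0.803 and 0.754 FPKM in the EWSR1::FLI1 high libraries and 4.38, 5.26 and 5.42 FPKM in the EWSR1::FLI1 low libraries (log2 fold change 1.77, standard error 0.15, adjusted p = 0.000207). The 2 subunits therefore moved in opposite directions, while IL1RAP stayed above IL1R1 in every library.

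The ratio of IL1RAP to IL1R1, with 1 FPKM added to each, was 45.2, 45.9 and 49.9 in the EWSR1::FLI1 high libraries and 3.67, 3.49 and 3.66 in the EWSR1::FLI1 low libraries. The groups did not overlap (difference of log2 ratios -3.70, two-sided exact permutation test, p = 0.1, the smallest that 3 against 3 samples allow). Since each gene separated the groups by itself, in opposite directions, this outcome was fixed and adds nothing to the results of the single genes. Among the 9 listed receptors of the family 3 were tested, and IL1R1 was the 1 called. IL1RL1, the receptor of interleukin 33, was too low to be tested.

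Of the 15 listed symbols of ligands and antagonists 10 were in the table and 6 were tested, and 1 was called higher and none lower. This was IL33, an alarmin of the interleukin 1 family, with 7.64, 14.7 and 10.1 FPKM in the EWSR1::FLI1 high libraries and 30.1, 67.8 and 52.0 FPKM in the EWSR1::FLI1 low libraries (log2 fold change 2.08, standard error 0.32, adjusted p = 0.0031). Its call was lost without EWSR1::FLI1 high replicate 1 or 3 or without EWSR1::FLI1 low replicate 3, with an adjusted p of 0.0125 to 0.0196. IL1A had 19.6, 86.1 and 34.0 FPKM in the EWSR1::FLI1 low libraries and overlapped its EWSR1::FLI1 high range of 20.4 to 31.5 FPKM (adjusted p = 0.365). IL1B had 18.5, 149 and 25.8 FPKM in EWSR1::FLI1 low and 7.76 to 12.5 FPKM in EWSR1::FLI1 high libraries, the largest from replicate 2 of that group (log2 fold change 1.88, adjusted p = 0.073). Both passed the test with sample quality weights, IL1B with an adjusted p of 0.00053 and IL1A with 0.00415. These weights favoured EWSR1::FLI1 low replicate 2, the highest library for both genes, and more genes were called with them over all genes tested. What the passes of IL1A and IL1B rest on was not tested. The antagonist IL1RN was too low to be tested. None of the 9 signal transducers tested of 10 listed, such as MYD88 and the IRAK kinases, was called (median log2 fold change 0.12).

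**Figure D3:**
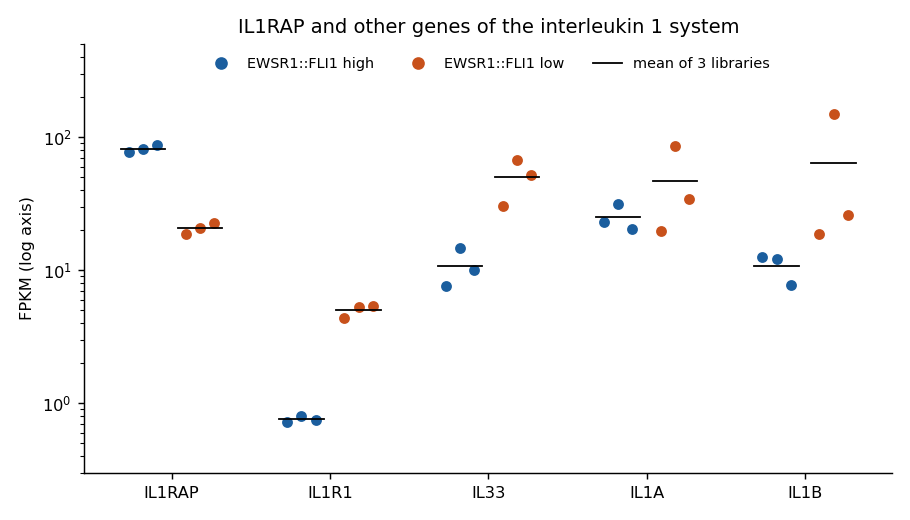
FPKM of IL1RAP, its partner IL1R1 and the ligands IL33, IL1A and IL1B in each library (log axis), with a line at the mean of 3 libraries. IL1RAP is lower and IL1R1 and IL33 are higher in all 3 EWSR1::FLI1 low libraries, while IL1A overlaps and the highest IL1B value, 149 FPKM, is 1 library.

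LINGO1 (ENSG00000169783, chromosome 15, 77905369 to 78113242, minus strand), which limits myelination and axon growth in the nervous system, had the lowest level of the 8 genes. Its values were 7.60, 5.91 and 9.89 FPKM in the EWSR1::FLI1 high libraries and 2.45, 1.20 and 1.26 FPKM in the EWSR1::FLI1 low libraries. The groups did not overlap, and the mean fell to 21.0% (log2 fold change -1.74, standard error 0.24, adjusted p = 0.00157). With a pseudocount of 0.1 in place of 1 the log2 fold change was -2.22.

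LINGO2, the relative that could be tested, stayed between 4.36 and 7.32 FPKM over the 6 libraries (log2 fold change 0.07, adjusted p = 0.85, with a sign that changed between alternatives). Of the 9 genes of the Nogo receptor complex and its ligands 6 were tested and none was called. RTN4R, the Nogo receptor, had 6.21, 6.34 and 7.67 FPKM in the EWSR1::FLI1 high libraries and 3.98, 2.92 and 3.54 FPKM in the EWSR1::FLI1 low libraries (log2 fold change -0.79, adjusted p = 0.0137). It passed the test without EWSR1::FLI1 low replicate 1 (-0.87, adjusted p = 0.00754). NGFR, the neurotrophin receptor of the complex, ranged from 5.15 to 10.6 FPKM and from 2.53 to 2.81 FPKM (log2 fold change -1.10, adjusted p = 0.0139). Neither gene overlapped between the groups, and both missed the threshold in the fit of all 6 libraries. NGFR passed it with quantile normalization (adjusted p = 0.00777), a replicate block (0.00693), sample quality weights (0.00319) and limma-voom on recovered reads (0.00614), and RTN4R also with quality weights (0.000488). RTN4, which encodes the ligand Nogo, had a log2 fold change of 0.31 (adjusted p = 0.338), or 0.53 with quality weights (adjusted p = 0.00526).

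GPR64 (listed as ADGRG2, ENSG00000173698, chromosome X, 19007425 to 19140755, minus strand), an orphan adhesion receptor best known from the epididymis, had 31.8, 25.3 and 27.5 FPKM in the EWSR1::FLI1 high libraries. In the EWSR1::FLI1 low libraries it had 4.84, 4.70 and 5.62 FPKM. The EWSR1::FLI1 low libraries were close to each other and all far below the EWSR1::FLI1 high libraries, with 17.9% of the mean left (log2 fold change -2.27, standard error 0.17, adjusted p = 0.000112).

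Of the 31 other adhesion receptors listed, 30 were in the table and 17 were tested, of which 1 was called lower and 2 higher, with a median log2 fold change of 0.13. ADGRG7 fell from 2.24, 1.95 and 2.79 FPKM to 0.548, 0.297 and 0.724 FPKM (log2 fold change -1.13, adjusted p = 0.00356). ADGRL2, a latrophilin, rose from 3.41, 3.03 and 3.18 FPKM to 9.55, 11.3 and 10.5 FPKM (log2 fold change 1.44, adjusted p = 0.000483). GPR126, a receptor of Schwann cell development, had a mean of 0.392 FPKM in the EWSR1::FLI1 high libraries and 2.92 FPKM in EWSR1::FLI1 low cells (log2 fold change 1.42, adjusted p = 0.00844). GPR56 had 0.627, 3.77 and 1.99 FPKM in the EWSR1::FLI1 low libraries and at most 0.18 FPKM in EWSR1::FLI1 high libraries (log2 fold change 1.30, adjusted p = 0.0278), and passed without EWSR1::FLI1 low replicate 1 (1.70, adjusted p = 0.00126). The calls of ADGRG7 and GPR126 were lost in 4 and 5 of the 6 leave-one-out fits, those without any EWSR1::FLI1 high library or EWSR1::FLI1 low replicate 2 and, for GPR126, also replicate 3, with an adjusted p of up to 0.0227 and 0.0402. GPR126 also lost its call with no filter on low values (adjusted p = 0.0221) and with quantile normalization (adjusted p = 0.0166).

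PAPPA (ENSG00000182752, chromosome 9, 118916070 to 119164600, plus strand) had 24.5, 20.4 and 24.3 FPKM in the EWSR1::FLI1 high libraries. In the EWSR1::FLI1 low libraries it had 18.3, 17.4 and 11.3 FPKM. The groups did not overlap, and the lowest value was that of EWSR1::FLI1 low replicate 3. The mean was 67.8% of the EWSR1::FLI1 high mean (log2 fold change -0.56, 95% interval -1.05 to -0.06, adjusted p = 0.11), and PAPPA passed the test in none of the alternatives. Leaving out that library gave a log2 fold change of -0.35 (adjusted p = 0.174).

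Of the 10 listed relatives, substrates and inhibitors of PAPPA 8 were tested, of which 2 were called higher and none lower. IGFBP5, a binding protein that PAPPA cleaves, had 3.18, 1.25 and 1.86 FPKM in the EWSR1::FLI1 high libraries and 148, 63.1 and 90.5 FPKM in the EWSR1::FLI1 low libraries. It was higher in every EWSR1::FLI1 low library (log2 fold change 4.99, standard error 0.33, adjusted p = 6.27e-05). STC1, an inhibitor of PAPPA, rose from 10.6, 10.5 and 13.8 FPKM to 66.5, 255 and 118 FPKM (log2 fold change 3.34, standard error 0.41, adjusted p = 0.000956). STC2, the other inhibitor, had 2.78, 26.7 and 6.09 FPKM in EWSR1::FLI1 low libraries and overlapped the EWSR1::FLI1 high range of 4.53 to 7.68 FPKM (adjusted p = 0.674). IGFBP4, the main substrate, stayed at or under 1.06 FPKM in all libraries (adjusted p = 0.467), and PAPPA2 was too low to be tested.

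LIPI (ENSG00000188992, chromosome 21, 15481134 to 15583276, minus strand), a phosphatidic acid phospholipase that healthy tissues other than testis hardly express, had 204, 202 and 194 FPKM in the EWSR1::FLI1 high libraries. In the EWSR1::FLI1 low libraries it had 51.6, 21.7 and 41.2 FPKM. The EWSR1::FLI1 high libraries differed little, with a coefficient of variation of 2.57%, while that of the EWSR1::FLI1 low libraries was 39.8%. The mean fell to 19.1% (log2 fold change -2.44, standard error 0.29, adjusted p = 0.000767).

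The closest relative of LIPI, LIPH, had 5.12, 6.80 and 6.11 FPKM in the EWSR1::FLI1 high libraries and 2.73, 6.26 and 5.37 FPKM in the EWSR1::FLI1 low libraries (log2 fold change -0.33, adjusted p = 0.409), and the groups overlapped. Of the 9 lipases listed 4 were tested, and lipoprotein lipase, LPL, was the 1 called, from 5.37, 3.58 and 3.76 FPKM to 23.9, 32.4 and 36.8 FPKM (log2 fold change 2.61, adjusted p = 0.000187). Of the 10 receptors and enzymes of lysophosphatidic acid 8 were tested, of which 1 was called higher and none lower. PPAP2B, a phosphatase that degrades lysophosphatidic acid, had 0.605, 0.493 and 0.429 FPKM in the EWSR1::FLI1 high libraries and 2.99, 8.26 and 4.17 FPKM in the EWSR1::FLI1 low libraries (log2 fold change 1.93, adjusted p = 0.00221). Its adjusted p was 0.0104 to 0.0147 without EWSR1::FLI1 high replicate 2 or 3 or without EWSR1::FLI1 low replicate 3. ENPP2, the secreted enzyme autotaxin, was too low to be tested.

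**Figure D4:**
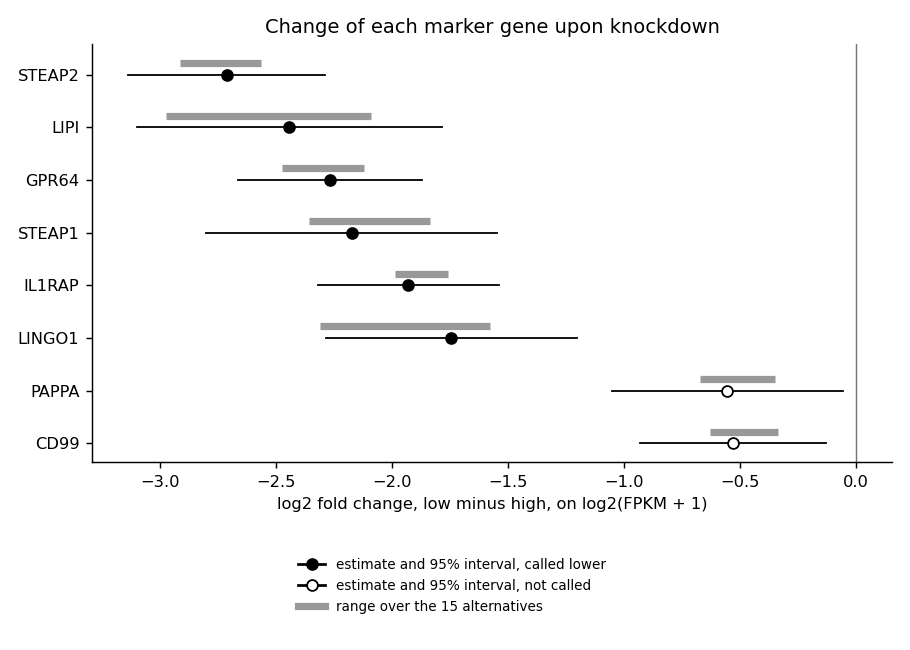
Log2 fold change of each marker gene, EWSR1::FLI1 low minus EWSR1::FLI1 high on log2(FPKM + 1), with its 95% interval from limma and, above it in grey, the range over 15 alternatives. Filled points were called at an adjusted p under 0.01, and the intervals of CD99 and PAPPA lie nearer to 0 than those of the other genes.

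The 95% intervals of CD99 and PAPPA reached down to -0.93 and -1.05, and the intervals of the 6 genes that were called ended between -1.20 (LINGO1) and -2.29 (STEAP2) at their upper side. Differences between genes were not tested.

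The nearest tested gene on each side of each marker gene was examined as well. RBM11, an RNA-binding protein gene 5.17 kb from LIPI on the other side of the GGAA run, had 195 FPKM in EWSR1::FLI1 high cells and fell to 56.1 FPKM in EWSR1::FLI1 low cells (log2 fold change -1.79, standard error 0.19, adjusted p = 0.000395). XG, 10.7 kb from CD99, and the STEAP1 and STEAP2 pair also fell. TNC, which encodes tenascin C, rose from 91.4 to 232 FPKM but lies 1036 kb from PAPPA (adjusted p = 0.00704, and 0.0197 to 0.0427 without any one EWSR1::FLI1 high library or without EWSR1::FLI1 low replicate 2). Its adjusted p was 0.0183 with no filter on low values. In the fit of all 6 libraries the other neighbours, at 5.19 to 1042 kb, did not pass the test, among them PHKA2, 5.19 kb from GPR64 (log2 fold change -0.65, adjusted p = 0.027), and CFAP69, 7.04 kb from STEAP2 (log2 fold change -0.11, adjusted p = 0.695). ASTN2, 20.8 kb from PAPPA, had a log2 fold change of -0.17 (adjusted p = 0.517). GMNC, a neighbour of IL1RAP, had a log2 fold change of -0.68 (adjusted p = 0.053) but passed without EWSR1::FLI1 low replicate 1 (-0.91, adjusted p = 0.00355) and with sample quality weights (-0.86, adjusted p = 0.000689). With those weights PHKA2 (-0.83, adjusted p = 0.000634) and TBC1D2B (0.71, adjusted p = 0.00191), a neighbour of LINGO1, passed as well.

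**Figure D5:**
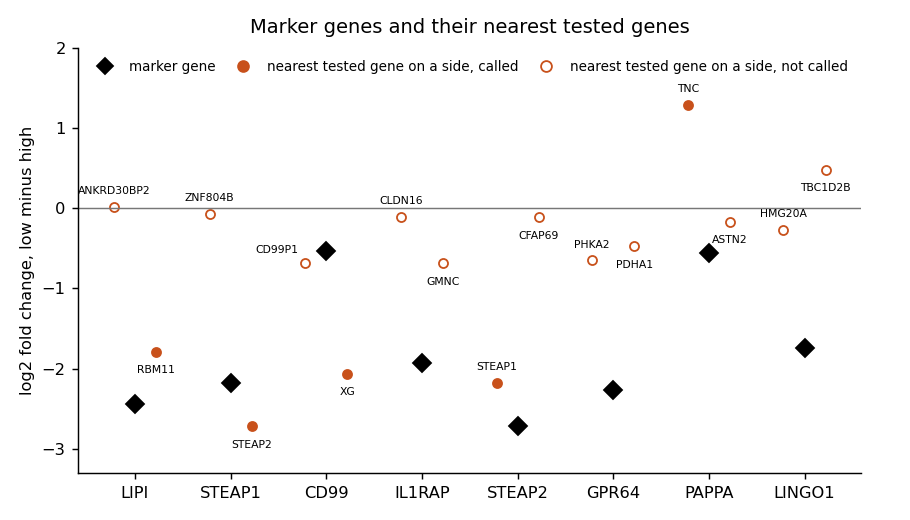
Log2 fold change on log2(FPKM + 1) of each marker gene (diamonds) and of the nearest tested gene on each side of it (circles, filled where the adjusted p was under 0.01). RBM11 beside LIPI, XG beside CD99 and the adjacent STEAP1 and STEAP2 are at -1.79 or lower, and the other neighbours except TNC are open circles nearer to 0.

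Other surface proteins studied as Ewing sarcoma targets moved both ways. Of 15 listed 14 were tested, of which 2 were called lower and 3 higher, with a median log2 fold change of -0.02. SLCO5A1, an organic anion transporter, fell from 41.9, 37.8 and 42.4 FPKM to 15.7, 15.5 and 19.2 FPKM (log2 fold change -1.23, adjusted p = 0.00206). ENPP1, an ectonucleotidase, fell from 12.8, 12.3 and 12.9 FPKM to 6.44, 4.78 and 4.62 FPKM (log2 fold change -1.13, adjusted p = 0.00293), and its call was lost with median-ratio scaling. The adhesion molecules MCAM and NCAM1 and the Wnt receptor ROR1 rose with log2 fold changes of 1.43, 1.33 and 1.06 (adjusted p = 0.00275, 0.00199 and 0.00334). The calls of these 5 genes were each lost in at least 3 of the 6 leave-one-out fits. Those of SLCO5A1, ENPP1 and ROR1 were lost without any one EWSR1::FLI1 high library, that of MCAM without high replicate 1 or 2 and that of NCAM1 without high replicate 2 or 3. ENPP1 also lost its call without EWSR1::FLI1 low replicate 2, and ROR1, MCAM and NCAM1 without low replicate 3, and the adjusted p in all these fits lay between 0.0101 and 0.0257. The call of ROR1 was also lost with no filter on low values (adjusted p = 0.0124).

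The genes whose pattern over the 6 libraries was nearest to that of a marker gene, by the Euclidean distance of mean-centred log2(FPKM + 1), were UHMK1 and CCND1 for STEAP1 (0.34 and 0.44), CPB2 and TMEM229A for STEAP2 (0.33 and 0.42), and SH3GL3 and MPP5 for IL1RAP (0.29 and 0.30). They were PROKR1 and BARHL2 for LINGO1 (0.12 and 0.28), BCL11B and EPB41 for GPR64 (0.31 and 0.35), and DLG2 and UGT3A2 for LIPI (0.30 and 0.34). For CD99 they were LRP6 and TMEM176A (0.09 and 0.10), and for PAPPA NR4A3 and DHRS3 (0.26 and 0.29). Since this scale shrinks changes of weakly expressed genes, a small distance need not mean an equal fall. TMEM176A had 12, 7 and 9 reads in high and 6, 2 and 5 in low libraries. Its low-to-high ratio of means was 0.389, against 0.691 for CD99, and that of NR4A3 was 0.432, against 0.678 for PAPPA. CCND1, the cyclin D1 gene, had the highest level among them, a mean of 385 FPKM in the EWSR1::FLI1 high libraries and 109 FPKM in EWSR1::FLI1 low cells.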

How the data were processed

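RNAseq of 6 samples was analysed, 3 EWSR1::FLI1 high and 3 EWSR1::FLI1 low, grouped and numbered by their titles. The authors aligned paired-end reads to GRCh37 with STAR (2.5.0b per the submitters' notes, which also list Cufflinks 2.2.1, bedtools 2.17.0 and DESeq2 1.6.3) after ribosomal RNA depletion and ScriptSeq v2 library preparation. The authors deposited FPKM per gene symbol and library, already scaled between libraries, and a DESeq2 table. Of the latter only the mean signal per gene (mean of normalized counts, as deposited by the authors) was used, and its fold changes, standard errors, scores and p-values were not. With it, 100% of FPKM above 0 came out as whole reads (within 0.1), which gave the depth, from 6980361 to 16658933 reads on genes. Replicates differed by more than sampling noise (chi-square per degree of freedom from 4.25 to 31.5).

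Genes with a mean of at least 0.5 FPKM were tested with limma 3.58.1 (R 4.3.3; lmFit, eBayes with trend) on log2(FPKM + 1), low against high, with Benjamini-Hochberg adjustment over 15504 genes. Steps were tested on simulated data. Ratios were compared with exact permutation tests. Alternatives were a pseudocount of 0.1, no filter, a mean of at least 1 FPKM, quantile normalization, median-ratio scaling, a replicate block, eBayes with no trend, each library left out, sample quality weights and limma-voom on recovered reads. Genes named are the 8 marker genes, FLI1, EWSR1 and NR0B1, chosen partners, up to 3 of the largest changes in each direction among those called in a list, the 2 nearest in pattern and the nearest tested neighbours; markers of other cell types, PILRA, PILRB, STEAP1B, MYD88 and the IRAK kinases were named besides. The marker genes and lists were chosen with earlier results of these data known. Gene positions follow the GRCh37 lift of GENCODE v44, repeats were read from GRCh37, start sites are those of the canonical transcripts, and promoters are those of RefSeq (GRCh38.p14, 8 of 8 genes matched). Remaining steps were run in Python 3.11.15, pandas 2.3.3 and matplotlib 3.10.9. Isoforms, protein and functional assays were not analysed here.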

Additional observations from a re-analysis of the deposited data

How the results depend on the processing

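The 6 marker genes called lower remained 6 in 12 of 15 alternatives, were 7 with CD99 added under sample quality weights, and ranged from 5 (STEAP1 lost) to 7 (CD99 added) when 1 library was left out. None was called higher in any. All 8 kept a negative log2 fold change in all 15. With 3 samples a group the smallest p of the exact permutation tests of ratios was 0.1.

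Over all genes, 522 were lower and 700 higher, against 297 and 456 without a filter, 836 and 1231 with median-ratio scaling, 991 lower with quantile normalization, 2257 and 2488 with sample quality weights, and 784 lower with limma-voom on recovered reads. Leaving out 1 library gave 156 to 726 lower and 287 to 1452 higher. Fewer samples enter these leave-out fits, and the quality weights favoured EWSR1::FLI1 low replicate 2 within its group. The cause of the shifts was not tested. In the leave-out fits the list counts ranged from 1 to 2 for the knockdown check (2 with all libraries), 0 to 1 for interleukin 1 ligands (1), 1 to 2 for their receptors (1), 0 to 1 for signal transducers (0) and for the Nogo receptor complex (0), and 1 to 5 for adhesion receptors (3). They ranged from 2 to 4 for PAPPA relatives (2), 1 to 2 for lipases (1), 0 to 3 for lysophosphatidic acid genes (1) and 0 to 6 for other Ewing sarcoma targets (5). The highest of these came without EWSR1::FLI1 low replicate 1 for every list from the interleukin 1 receptors to the lysophosphatidic acid genes, and the lowest count of Ewing sarcoma targets without EWSR1::FLI1 high replicate 2.

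With sample quality weights the lists held 2 calls for CD99 relatives, 3 for interleukin 1 ligands, 2 for receptors, 1 for signal transducers, 4 for the Nogo receptor complex, 7 for adhesion receptors, 5 for PAPPA relatives, 2 for lipases, 4 for lysophosphatidic acid genes and 8 for other targets. With limma-voom they held 2, for CD99 relatives, receptors and lipases alike, 1 for signal transducers and for the Nogo complex, and 5 for adhesion receptors. CD99 relatives had 2 calls with median-ratio scaling and quantile normalization, the interleukin 1 receptors 2 with median-ratio scaling and a pseudocount of 0.1, lipases 2 with that pseudocount, and the Nogo complex 1 with quantile normalization.

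Same-numbered libraries deviated from their group means with r = 0.27, 0.09 and 0.12. Differently numbered pairs had r from -0.29 to -0.008, except EWSR1::FLI1 low replicate 2 with high replicate 3 (0.19). Whether equal numbers pair the samples was not settled, and the main fit did not use the numbers. With a replicate block 786 genes were lower and 916 higher, 6 marker genes were lower, and the interleukin 1 receptors and the lipases had 2 calls each and the signal transducers and the Nogo complex 1 each.

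Of the genes named, 6 had a log2 fold change whose sign changed. With another setting they were -0.025 for STEAP3 (quantile normalization), -0.27 for LINGO2 (quality weights), 0.015 for ZNF804B (median-ratio scaling), and -0.070, -0.13 and -0.076 for ANKRD30BP2 (quantile normalization, quality weights and limma-voom). Leaving out 1 library gave ranges from -0.28 to 0.61 for STEAP3, -0.042 to 0.28 for LINGO2, -0.39 to 1.04 for STC2, -0.21 to 0.028 for ZNF804B, -0.21 to 0.013 for CFAP69 and -0.14 to 0.12 for ANKRD30BP2. None of these genes was called.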
